A study of Mus musculus with 6 samples.

Results

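The T cell receptor (TCR) β chain is encoded by the Trb locus, whose variable (Trbv), diversity (Trbd), joining (Trbj) and constant (Trbc) genes were read here in the RNA of CD8 T cells. The 53 genes whose symbol starts with Trbv, Trbd, Trbj or Trbc were taken from a table of 78275 genes. They were 35 Trbv, 2 Trbd, 14 Trbj and 2 Trbc genes. The cells, sorted as CD4-CD8+ with high surface TCRβ, came from 3 wild-type (WT) and 3 BIT mice, and each mouse gave 1 library.

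All mice were on the C57BL/6 background, were 9 to 10 weeks old and were labelled as male. BIT mice carry the coding sequence of Psmb11, for the thymoproteasome subunit β5t, at the start of translation of Psmb8, so that β5t is made in place of the immunoproteasome subunit β5i. The study made several BIT lines by 2 designs of the allele. Its results are from the line BIT #1–2, of the design that changes the first coding exon of Psmb8 alone, where no other line is named, and none is named for the RNA. The labels give lymph nodes as the tissue and name lymph nodes and spleens in the protocol, with a purity after sorting of over 98%. The comparison asks whether mature CD8 T cells of BIT mice carry another set of TCRβ transcripts than those of WT mice.

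In a developing T cell, one Trbd gene is joined to one Trbj gene and then one Trbv gene to the pair, by the RAG recombinase at recombination signals beside each gene. The joined exon is spliced to the constant exons that follow it. The locus holds a pair of D-J-C clusters in tandem: Trbd1, the Trbj1 genes and Trbc1 make up cluster 1, and Trbd2, the Trbj2 genes and Trbc2 make up cluster 2. A chain with a Trbj1 gene ends in Trbc1 and a chain with a Trbj2 gene ends in Trbc2. The constant gene of a joined transcript thus records the cluster of its joint. Trbv31 lies beyond Trbc2 in the opposite orientation and joins by inversion. Mature CD8 T cells pair the β chain with an α chain and the CD3 proteins to recognise peptides on MHC class I.

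The share of Trbc1 among the counts of the constant genes was lower in every BIT than in every WT library. Trbc1 made up 20.8% ± 0.217 (SD, n = 3) of the Trbc counts in BIT mice and 23.8% ± 0.713 (SD, n = 3) in WT mice, and no BIT library reached any WT library. An exact permutation test of this share gave p = 0.1 (two-sided), the smallest that 3 mice against 3 can give. Both counts are estimates, as reads that match both constant genes are divided between them. The Trbv genes were used about as evenly in both genotypes, with an effective number of 14.3 ± 0.326 in BIT and 14.3 ± 0.374 in WT libraries (SD, n = 3 each). Their shares correlated at 0.977 to 0.991 between the genotypes and at 0.978 to 0.99 within them. The shares of 3 of the 26 Trbv genes with any count did not overlap, near the 11.5% of all genes tested. No TCRβ gene passed an adjusted p of 0.05 (limma-voom, Benjamini-Hochberg over all 16105 genes tested). The Trbj and Trbd genes had no counts in any library, so the clusters could be compared in the constant genes alone. The counts do not show which Trbc reads came from transcripts with a joined Trbv gene.

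The libraries held between 37467670 and 52922641 counts, of which the TCRβ genes took from 0.0871% to 0.12%. A gene with 0 counts may lie at up to 3 counts, or between 0.0567 and 0.0801 CPM from the deepest to the shallowest library, where CPM is the usual scaling of a count by the sum of its library. This limit covers counting error only. Psmb11 had 0 counts in the WT and 1226 to 1926 in the BIT libraries, and Psmb8 had 8024 to 10790 and 59 to 73 counts, so the genotypes matched the labels. WT replicate 3 goes against its label as male, with 66626 Xist counts, where each other library had at most 125, and 0 of Ddx3y, where each other library had at least 2958. Several results are therefore also given without it, but not those of the CD3 genes, Dntt and the markers of other cell types. The summed level of the CD8 T cell markers Cd8a, Cd8b1, Cd3e, Trac, Cd5 and Thy1 was 4741 to 5106 CPM in WT and 4995 to 5240 CPM in BIT libraries. The thymocyte markers Rag1, Rag2 and Ptcra summed to 0 in WT and at most 0.0267 CPM in BIT libraries.

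The locus spans 667 kb of chromosome 6, at chr6:40868163-41535386 of GRCm39. Of the 35 Trbv genes, 22 are annotated as functional and 13 as pseudogenes, and their annotated exons cover 260 to 566 bases. The 21 functional Trbv genes before Trbd1 start between 252 kb (Trbv30) and 642 kb (Trbv1) upstream of it, and Trbv31 starts 24.5 kb downstream. Trbc1 and Trbc2 have 737 and 692 exon bases. The Trbj genes are 46 to 53 bases long and the Trbd genes 12 to 14.

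The D and J genes are shown because they are among the shortest annotated genes. Each lies on the plus strand and was read from GRCm39, 5′ to 3′. The positions are chr6:41510135-41510146 for Trbd1, chr6:41519097-41519110 for Trbd2, chr6:41510798-41510845 for Trbj1-1, chr6:41512488-41512540 for Trbj1-6, chr6:41520744-41520790 for Trbj2-7 and chr6:41520532-41520579 for Trbj2-6. Capitals mark the codons of the Phe-Gly-X-Gly motif by which J segments are known, and a run without capitals holds no such codons.
Trbd1: gggacagggggc
Trbd2: gggactgggggggc
Trbj1-1: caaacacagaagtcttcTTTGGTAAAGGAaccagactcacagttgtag
Trbj1-6: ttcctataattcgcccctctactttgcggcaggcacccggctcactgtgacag
Trbj2-7: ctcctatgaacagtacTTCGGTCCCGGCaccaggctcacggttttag
Trbj2-6: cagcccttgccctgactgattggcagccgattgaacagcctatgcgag
The motif was found in 11 of the 13 functional Trbj genes and not in the 1 Trbj pseudogene, Trbj2-6, against 0.0124% of positions on both strands of the locus. Trbj1-6 and Trbj1-7 are the functional genes in which these letters were not found.

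All 14 Trbj genes, Trbj1-1 to Trbj1-7 and Trbj2-1 to Trbj2-7, and both Trbd genes had 0 counts in all 6 libraries. The share of cluster 2 among Trbj or Trbd counts therefore could not be computed. Of the 96 annotated genes no longer than 53 bases, 0 had a count in any library, whereas 38.5% of all 78263 genes matched to the annotation had one, as did 46 of the 2394 genes shorter than a read of 100 bases. The 96 genes include the 14 Trbj and 2 Trbd genes themselves, so they are not a separate comparison. Why the counts were 0 was not tested, and they say nothing of which J genes the cells used. Antisense genes at the Trbj2 genes did have counts. Gm68245, antisense to Trbj2-2 to Trbj2-5, had 3 to 29 and Gm68244, antisense to Trbj2-6 and Trbj2-7, had 28 to 118. The strand setting of the counting is not given in the sources used here.

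The constant genes carry the comparison between the clusters, and they are close copies. Their coding sequences have 518 bases each and differ at 23 of them, an identity of 95.6%. The 375 bases of exon 1, for the immunoglobulin-like domain, hold 1 difference, C260A, written with the base of Trbc1 first and counted from the first annotated coding base. The other 22 differences are in the last 143 bases, for the connecting, transmembrane and cytoplasmic parts. The stretches below are shown because they hold all the coding differences that can tell a Trbc1 from a Trbc2 read. They are on the plus strand of GRCm39, and capitals mark the bases that differ between the genes.
Trbc1 exon 1, chr6:41515381-41515440: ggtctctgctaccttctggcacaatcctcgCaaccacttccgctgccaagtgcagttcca
Trbc2 exon 1, chr6:41523893-41523952: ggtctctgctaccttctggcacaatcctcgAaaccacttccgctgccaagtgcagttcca
Trbc1 exons 2 to 4, spliced from chr6:41516048-41516596: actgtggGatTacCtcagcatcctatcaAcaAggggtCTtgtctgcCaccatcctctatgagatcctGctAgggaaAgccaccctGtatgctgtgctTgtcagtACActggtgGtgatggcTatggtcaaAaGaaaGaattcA
Trbc2 exons 2 to 4, spliced from chr6:41524544-41525112: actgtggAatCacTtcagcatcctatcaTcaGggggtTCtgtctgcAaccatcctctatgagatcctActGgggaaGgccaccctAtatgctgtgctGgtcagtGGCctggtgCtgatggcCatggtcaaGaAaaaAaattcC
Of the 419 windows of 100 bases along the coding sequence, 183 (43.7%) were identical between the genes. The 3′ untranslated regions of 219 and 174 bases had 0 of 195 stretches of 25 bases in common. A read that matches both genes is divided between them by RSEM, the program that made the counts. The estimated counts of Trbc1 and Trbc2 were not whole, but their sum was a whole number in 6 of 6 libraries (within 0.01), so reads were divided between these genes and with no other.

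Trbc1, the constant gene of cluster 1, had 10823, 12018 and 7181 estimated counts in WT and 7403, 6342 and 5584 in BIT mice. At the scale of the library total, these were 205, 238 and 180 CPM in WT and 165, 151 and 149 CPM in BIT mice. Each BIT library was lower than each WT library. The fitted difference was a log2 fold change of -0.45 (SE 0.14, 95% interval -0.77 to -0.14), with a p of 0.00987 and an adjusted p of 0.503 (limma-voom), so it did not pass over all genes. Over the 13 alternatives its adjusted p was between 0.138 and 0.999. The change was -0.58 without WT replicate 3 and -0.16 with the libraries scaled to the Trbv total.

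Trbc2, the constant gene of cluster 2, was the more abundant, with 686, 743 and 565 CPM in WT and 621, 581 and 565 CPM in BIT libraries. The groups overlapped, as WT replicate 3 lay level with BIT replicate 3. The log2 fold change was -0.21 (SE 0.11, 95% interval -0.47 to 0.05, adjusted p = 0.656, limma-voom). It was -0.11 without WT replicate 2, -0.34 without WT replicate 3 and 0.08 with the libraries scaled to the Trbv total. Per kb of exon, Trbc2 exceeded Trbc1 by a ratio of 3.42 ± 0.137 in WT and 4.05 ± 0.0534 in BIT libraries (SD, n = 3 each).

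The share of cluster 1 among the Trbc counts does not depend on how the whole libraries are scaled. It was 23%, 24.2% and 24.1% in WT and 21%, 20.6% and 20.9% in BIT mice. The Wilson 95% intervals ran from 22.6% to 24.6% over the WT and from 20.2% to 21.5% over the BIT libraries, without overlap. They cover counting error only, and not the division of shared reads between the genes by RSEM. The share was 2.94 percentage points lower in BIT mice, a difference larger than the spread in either group. An exact permutation test gave p = 0.1 (two-sided), the smallest that 3 mice against 3 can give, so this design could not reach 0.05. When counts were divided by the Trbc total in the same way, 1.55% of all genes tested were lower in each BIT than in each WT library, and Trbc1 was one of these. In the other direction 12.5% were higher in each BIT library, as Trbc2 was. The Trbc total had a lower mean in BIT (744 ± 37.4 CPM) than in WT mice (872 ± 119 CPM, SD, n = 3 each). Both percentages shift with this total, which Trbc1 and Trbc2 themselves make up. They are not a like background for the shares of these genes, so they do not show how rare the difference is. The lower share of Trbc1 and the higher share of Trbc2 are 1 difference. Without WT replicate 3, cluster 2 held 76.4% of the Trbc counts in WT and 79.2% in BIT mice, and with any 1 library left out the difference was between 2.72 and 3.35 percentage points.

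**Figure D1:**
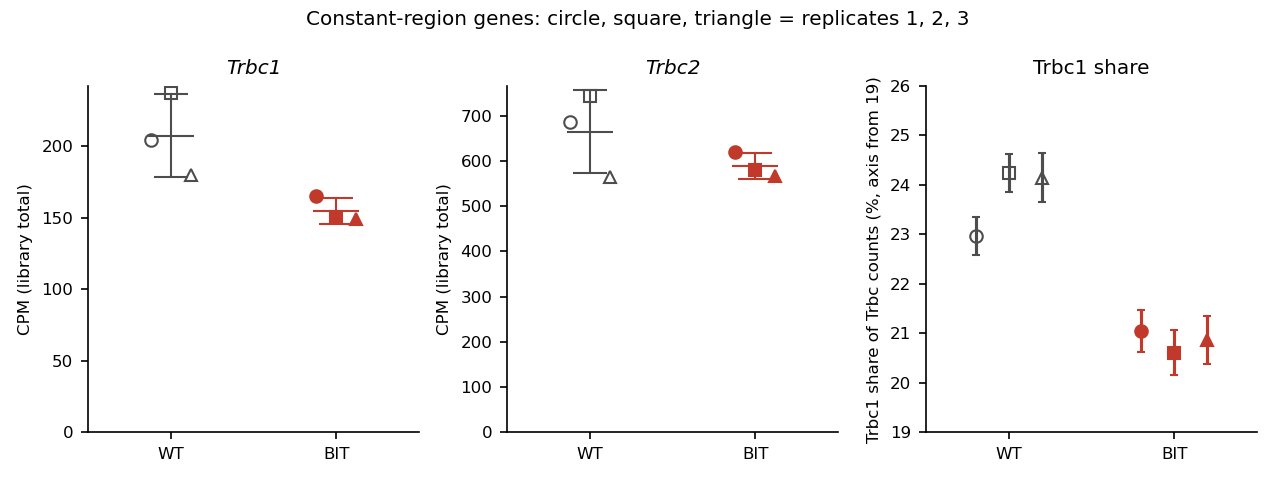
Level of Trbc1 and Trbc2 in CPM (left and middle, with mean and SD of 3 mice) and the share of Trbc1 among the counts of both (right, in percent, with the Wilson 95% interval of each library and an axis that starts at 19). The 3 BIT libraries lie between 20.6% and 21% and the 3 WT libraries between 23% and 24.2%.

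The Trbv genes encode most of the β chain that contacts peptide and MHC. All 22 functional Trbv genes had counts, as did 4 of the 13 pseudogenes, and 9 pseudogenes had 0 counts in all libraries. The Trbv total was 200 (WT 1), 218 (WT 2) and 154 (WT 3) CPM in WT and 164, 156 and 157 CPM in BIT mice, so the lowest of the 6 was the WT library that went against its label. Per 100 Trbc counts there were 21.8 ± 0.991 Trbv counts in WT and 21.4 ± 0.559 in BIT libraries (SD, n = 3 each, exact permutation p = 0.6, two-sided).

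Trbv29, Trbv15 and Trbv16 took the largest shares of the Trbv counts. Trbv29 held 10.3%, 12.4% and 11.6% in the WT and 9.61%, 10% and 9.91% in the BIT libraries, the BIT values being lower and without overlap. Trbv15 held 11.2%, 11.1% and 8.79% in WT and 10.6%, 12.8% and 8.86% in BIT mice, and Trbv16 held 8.82%, 9.7% and 9.93% in WT and 9.14%, 9.72% and 10.4% in BIT mice. Both overlapped between the genotypes. Together these 3 genes held 31.3% ± 1.65 in WT and 30.3% ± 1.9 in BIT libraries (SD, n = 3 each).

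The Trbv13 genes are a family of 3 that lie among the Trbv12 genes. Trbv13-3 held 8.45% ± 0.417 in WT and 8.9% ± 1.09 in BIT libraries. Trbv13-2 held 6.04% ± 0.263 and 6.59% ± 0.433, and Trbv13-1 held 3.75% ± 0.321 and 3.36% ± 0.673 (SD, n = 3 each). The family as a whole held 18.2% ± 0.485 of the Trbv counts in WT and 18.9% ± 0.761 in BIT mice, with overlap. The Trbv12 genes together held 3.33% ± 0.479 and 3.51% ± 0.559. The counts of these families were whole numbers, as were those of all members except Trbv4, Trbv5, Trbc1 and Trbc2.

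Of the other genes with at least 3% of the Trbv counts, Trbv3 held 7.32% ± 0.945 in WT and 7.29% ± 0.843 in BIT, Trbv19 held 6.69% ± 0.304 and 7.47% ± 0.592, and Trbv17 held 6.31% ± 0.411 and 6.33% ± 0.964. Trbv14 held 5.7% ± 0.829 and 5.98% ± 0.448, and Trbv4 held 5.39% ± 0.149 and 5.11% ± 0.193. Trbv2 held 4.19% ± 0.21 and 3.78% ± 0.352 (SD, n = 3 each for all). In all 6 of these genes the groups overlapped. Trbv1, the Trbv gene farthest from Trbd1, held 3.18%, 3.06% and 3.47% in the WT and 2.74%, 2.81% and 2.75% in the BIT libraries, each BIT value being lower. Trbv4 and Trbv5 share reads with a lncRNA gene that overlaps them on the same strand, 5830405F06Rik (104 to 189 counts), and the sum of the 3 was whole in 6 of 6 libraries, so their separate values are uncertain.

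Counting the 26 Trbv genes with any count, the shares of 3 did not overlap between the genotypes, namely Trbv1 and Trbv29 (lower in BIT) and Trbv30 (higher in BIT). Trbv30, a rare gene named after its values were seen, held 0.52%, 0.59% and 0.473% in WT and 0.613%, 0.593% and 0.748% in BIT libraries, on 29 to 65 counts. Divided by the Trbv total in the same way, 11.5% of all genes tested did not overlap in either direction, and 3 of 26 is near this share. Without WT replicate 3 the count was 5 of 26, against 64.2% of all genes counted in the same way. It was 6 without BIT replicate 1, against 23.1%, and 7 without BIT replicate 2, against 14.2%.

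**Figure D2:**
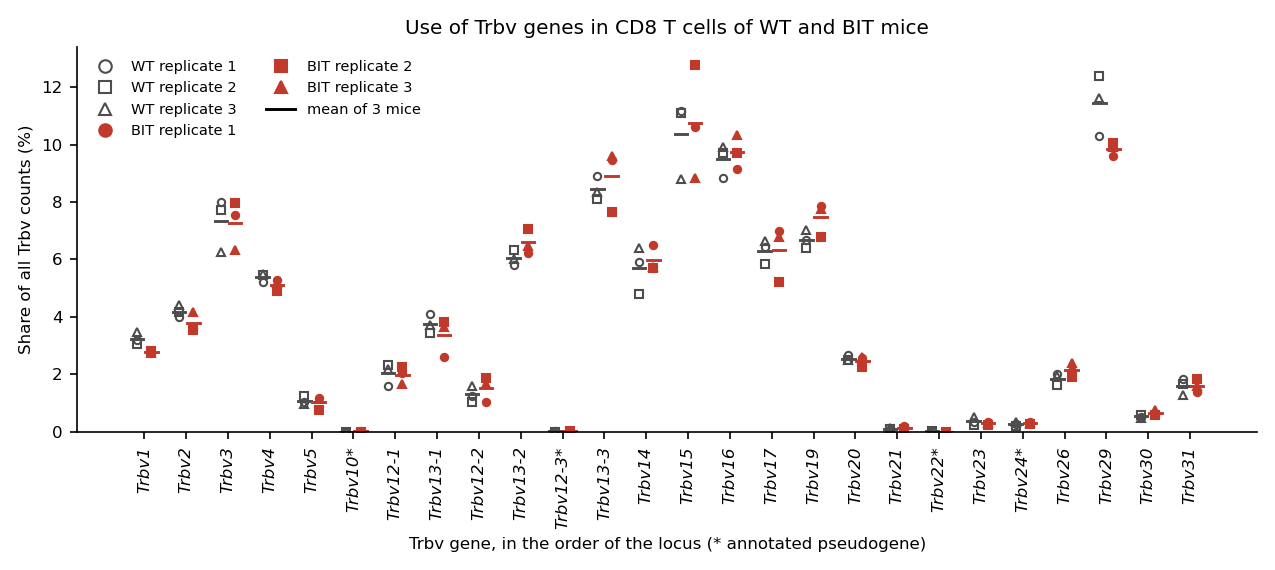
Share of each Trbv gene in the Trbv counts of a library (in percent), for the 26 genes with any count in the order of the locus. Open grey symbols are WT and filled red symbols BIT mice, the shape gives the replicate and short lines are means of 3 mice. Trbv29, Trbv15 and Trbv16 hold the largest shares in both genotypes.

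The whole Trbv profiles were as alike between genotypes as within them. Over the 22 Trbv genes compared on the log2 share, Pearson correlations were between 0.977 and 0.991 for the 9 pairs of a WT with a BIT library and between 0.978 and 0.99 for the 6 pairs of the same genotype. These are correlations across genes within libraries, given as a description. The effective number of Trbv genes, the inverse of the summed squared shares, was 14.4, 13.8 and 14.6 in WT and 14.2, 14 and 14.6 in BIT libraries. An even use of all 22 functional genes would make it 22. Leaving out any 1 library moved the difference between the genotypes to between -0.19 and 0.17.

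Between genes, levels were compared per kb of exon. Trbv29 was the highest in WT mice with 61.8 ± 13.3 CPM per kb, followed by Trbv15 with 54.1 ± 15.5 and Trbv13-3 with 47.3 ± 8.29 (SD, n = 3 each). In BIT mice Trbv15 had 46.2 ± 8.2, Trbv29 44.4 ± 0.278 and Trbv13-3 41.7 ± 5.74 CPM per kb. These genes did not stand apart from their neighbours in the order, and in WT mice 22 of the 25 neighbouring pairs of Trbv genes had ranges that overlapped. The lowest functional gene was Trbv21, named after its values were seen, with 4 to 15 counts in a library. The highest pseudogene, Trbv24, had 29, 22 and 20 counts in WT and 25, 17 and 18 in BIT libraries, a level of 1.43 ± 0.163 and 1.39 ± 0.223 CPM per kb that was above that of functional Trbv21. The next pseudogenes, Trbv12-3, Trbv10 and Trbv22, had at most 2 counts in any library.

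**Figure D3:**
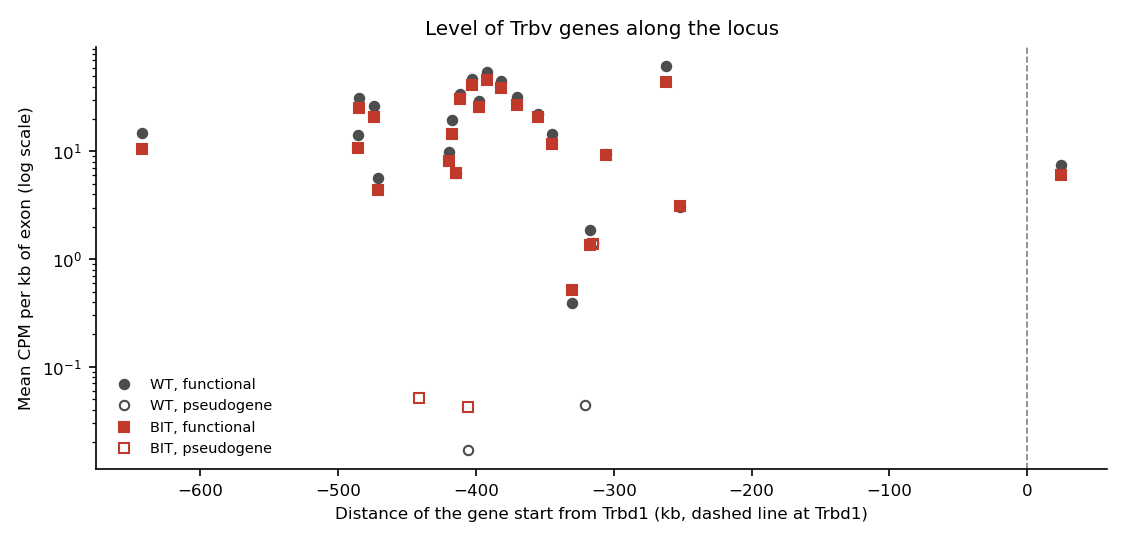
Mean level of the Trbv genes (CPM per kb of exon, log scale) against the distance of their start from Trbd1 (kb), with WT mice in grey circles, BIT mice in red squares and pseudogenes as open symbols; genes with a mean of 0 in a genotype are not drawn for it. Trbv29 and Trbv15 have the highest points, and Trbv31 is the single point beyond Trbd1.

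The levels of the Trbv genes were in no clear order along the locus. Over the 21 functional genes upstream, Spearman's rho of the mean level per kb with the distance was 0.0545 and Pearson's r on the log2 scale was 0.19, as a description across genes that share the same libraries. Trbv1, at 642 kb, had 14.7 ± 1.67 CPM per kb in WT and 10.6 ± 0.201 in BIT mice. Trbv30, the nearest at 252 kb, had 3.04 ± 0.837 and 3.09 ± 0.377 CPM per kb (SD, n = 3 each). Trbv31, the inverted gene downstream, named after its values were seen, had 7.44 ± 2.32 and 6.08 ± 0.723 CPM per kb, and the antisense gene Gm68469 that overlaps it had 14 to 63 counts. Trbv13-2 has an antisense neighbour of the same kind, Gm67876, with 9 to 38 counts.

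The recombination signal after a Trbv gene is a heptamer (consensus CACAGTG), a spacer of 23 bases and a nonamer (consensus ACAAAAACC). The windows of 39 bases right after the annotated end are shown for the 3 genes whose shares did not overlap and for Trbv15, Trbv24 and Trbv13-3. They were read from GRCm39, 5′ to 3′ on the plus strand, and capitals mark the 7 bases at the place of the heptamer and the 9 bases at the place of the nonamer.
Trbv1, chr6:40868820-40868858: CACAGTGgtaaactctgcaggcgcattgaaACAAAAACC
Trbv29, chr6:41248816-41248854: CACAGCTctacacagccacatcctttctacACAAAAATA
Trbv30, chr6:41258925-41258963: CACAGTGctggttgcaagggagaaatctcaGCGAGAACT
Trbv15, chr6:41118593-41118631: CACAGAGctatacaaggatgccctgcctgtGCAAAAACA
Trbv13-3, chr6:41107520-41107558: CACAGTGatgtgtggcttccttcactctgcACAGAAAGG
Trbv24, chr6:41195492-41195530: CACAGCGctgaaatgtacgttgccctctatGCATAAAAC
The window began with CACA in 20 of the 22 functional genes and in 10 of the 13 pseudogenes, against 0.647% of positions on both strands of the locus. It began with the whole CACAGTG in 7 functional genes and in 0 pseudogenes (background 0.0112%). The whole nonamer was found at its place in Trbv1 alone of the 35 genes (background 0.0018%). The 7 functional genes whose window began with CACAGTG had a median level of 17 CPM per kb (range 3.06 to 44.5). The other 15 had a median of 12.5 (0.453 to 53.1). They include Trbv29 and Trbv15, the genes with the highest levels, and Trbv21, the lowest. The window of Trbv21 held CACAGTG shortly after its start, so which median is the higher depends on where this gene is counted.

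In the fit over all genes, 24 TCRβ genes had enough counts to be tested, 22 Trbv genes (21 functional and the pseudogene Trbv24) and both Trbc genes. Members that were not tested had low or no counts, so the 24 do not stand for all 53. Of these 24, 0 had an adjusted p below 0.05 (limma-voom), against 0.137% of all genes tested. At an unadjusted p below 0.05 there were 2, Trbc1 and Trbv29, both lower in BIT mice, against 4.32% of all genes in that direction. For Trbv29 the log2 fold change was -0.47 (SE 0.18), with an adjusted p of 0.551 (limma-voom). It was -0.27 without WT replicate 2, -0.63 without WT replicate 3 and -0.21 with the libraries scaled to the Trbv total. The same genes were the only ones among the 24 with all BIT libraries below all WT libraries on the normalized log2 CPM scale, against 5.96% of all genes. The fitted changes of the Trbv genes ran from -0.47 to 0.19, with none past the adjusted threshold.

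The fitted change was below 0 for 20 of the 24 genes, against 47.7% of all genes tested. The median log2 fold change was -0.22 over the 24 genes and 0.01 over all genes. As transcripts from 1 locus, in which a Trbv and a Trbc gene can be part of the same molecule, these genes are not independent of each other. In bulk RNA, fewer cells with a transcript and less of it per cell cannot be told apart. By the other methods 23 (TMM normalization), 24 (edgeR) and 24 (DESeq2) of 24 were below 0. Each called 0 of the 24 at an adjusted p of 0.05, where 16, 14 and 125 of all genes passed. At an unadjusted p below 0.05, 3, 4 and 4 were lower, against 4.64%, 3.89% and 3.6% of all genes in these fits. When the libraries were scaled to their Trbv total, 12 of 24 were below 0 and the median of all genes moved to 0.26. Without WT replicate 3 the median of the 24 was -0.41, with 14 lower at an unadjusted p below 0.05, against 6.43% of all genes in that fit, and 0 called. Without WT replicate 2, the library with the highest Trbv and Trbc totals, 15 of 24 were below 0 with a median of -0.07.

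**Figure D4:**
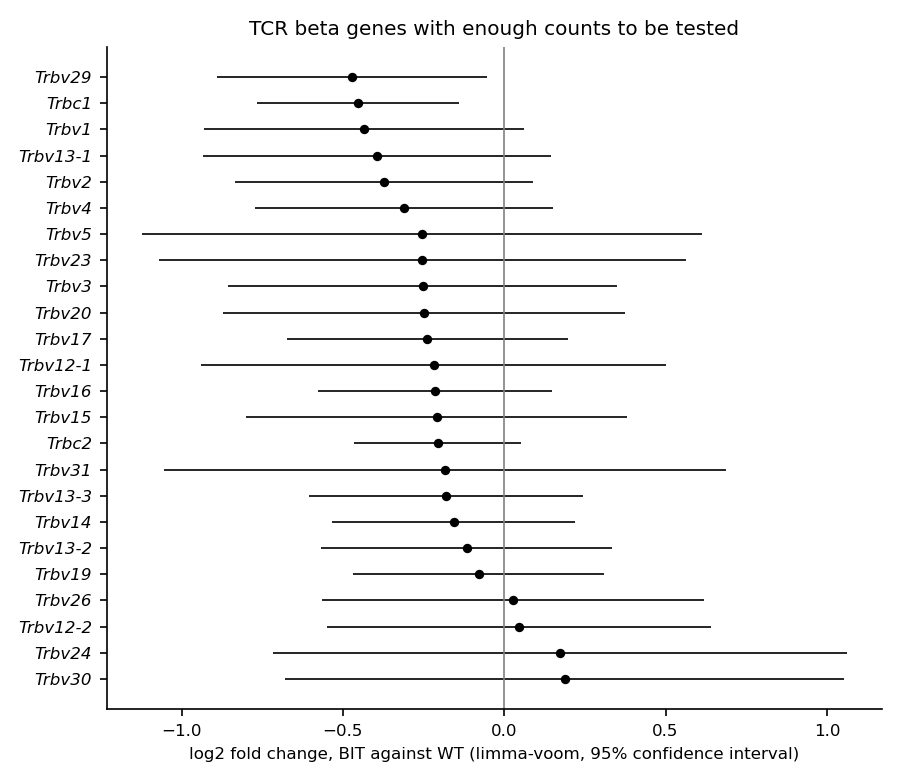
Fitted log2 fold change, BIT against WT, of the 24 TCRβ genes tested, with 95% confidence intervals from limma-voom that are not adjusted for the number of genes. The intervals of Trbc1 and Trbv29 lie below 0 and the other 22 include it.

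The partners of the β chain were read from fixed lists. Trac, the constant gene of the α chain, had 557, 485 and 472 CPM in WT and 575, 591 and 542 CPM in BIT libraries, with a log2 fold change of 0.13 (SE 0.09, adjusted p = 0.718, limma-voom). Of the TCR and pre-TCR complex (Trac, Cd3d, Cd3e, Cd3g, Cd247, Ptcra), 5 of 6 genes were tested and 0 were called, against 0.137% of all genes tested. At an unadjusted p below 0.05 (limma-voom) there were 2 of the 5, against 1380 of all 16105 genes. The 2 were the signalling chains Cd3g, with a log2 fold change of -0.34 (SE 0.11), and Cd247, with -0.24 (SE 0.08), both with an adjusted p of 0.531 (limma-voom). Cd3e and Cd3d, the other CD3 chains, had values of 0.10 and -0.17.

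Relative to the Trbc total, Trac was higher in each BIT library, with 0.625, 0.494 and 0.635 counts per Trbc count in WT and 0.732, 0.809 and 0.758 in BIT mice (exact permutation p = 0.1, two-sided, the smallest possible). Without WT replicate 3 the mean ratio was 0.56 in WT and 0.766 in BIT mice. This ratio was chosen after its values were seen. Divided in this way, 12.5% of all genes tested were higher in each BIT than in each WT library, as given above.

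Among 14 genes of V(D)J recombination, 12 were tested and 0 were called at an adjusted p of 0.05 (limma-voom), against 0.137% of all genes tested. At an unadjusted p below 0.05 there was 1 of the 12, against 1380 of all 16105 genes. The 1 gene was Dntt, the enzyme that adds bases at the joints, with a log2 fold change of -1.38 (SE 0.31) and an adjusted p of 0.312 (limma-voom). Each BIT library of Dntt lay below each WT library on the normalized log2 CPM scale, as for 5.96% of all genes. Rag1 had 1 count in each of 2 BIT libraries and 0 in the others, and Rag2 had 0 in all. The median log2 fold change of the 12 genes was -0.02, against 0.01 over all genes.

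Markers of other cell types were also counted. Of the B cell genes, Cd79b was at 12.2 to 15.1 CPM and Ighd at 7.94 to 11.3 CPM over the 6 libraries, with log2 fold changes of -0.01 and 0.03 (limma-voom). Pax5 was at 2.67 to 6.66, Ms4a1 at 2.86 to 6.11 and Cd79a at 4.32 to 8.25 CPM, with log2 fold changes of -0.58 (adjusted p = 0.708), -0.42 (adjusted p = 0.75) and -0.37 (adjusted p = 0.716, limma-voom). The highest level of each of these 3 genes was in WT replicate 2, which also had the highest Trbv and Trbc totals. The myeloid markers Lyz2, Csf1r, Itgam, Cd14 and Adgre1 summed to 10.2 to 16.1 CPM in WT and 7.42 to 10.5 CPM in BIT libraries. The CD4 T cell markers Cd4, Zbtb7b, Cd40lg and Foxp3 summed to 3.62 to 5.68 and 3.22 to 4.48 CPM. The γδ T cell markers Trdc, Trgc1, Trgc2, Trgc4, Sox13 and Trdv4 summed to 6.75 to 8.91 and 6.44 to 9.37 CPM, the NK cell markers Ncr1, Klrb1c and Klra8 to 1.5 to 2.68 and 1.68 to 3.09 CPM, and Zbtb16 of NKT cells had at most 0.208 and 0.156 CPM. The ranges of these summed lists overlapped between the genotypes, and their part in the results was not tested.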

How the data were processed

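The authors deposited 1 table of estimated counts from RSEM 1.3.1 (Gencode M38). Paired reads of 100 bases had been trimmed (Cutadapt 1.18) and aligned to GRCm39 (STAR 2.7.0f), with tool versions from the submitters' processing notes. Libraries were made from total RNA without ribosomal RNA. The counts are not normalized, and were rounded to whole numbers for the fit. Positions, exons and sequences are from Gencode M39 on GRCm39, which held 53 of 53 members and 78263 of 78275 genes. Groups came from the sample labels. RSEM divides reads between close copies, and few genes shorter than a read had counts.

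BIT and WT mice were compared with limma 3.58.1 (voom with quantile normalization, R 4.3.3). The filterByExpr function of edgeR 4.0.16 left 16105 genes to test, over which p-values were adjusted after Benjamini and Hochberg, and the fit was tested on simulated data. Shares were taken within each gene class and library, with exact permutation tests in SciPy 1.17.1. Replicates are separate mice. Alternatives were TMM, edgeR, DESeq2 1.42.0, other filters and scalings, the replicate number as a block and leaving out libraries. The genes named are the Trbc, Trbd and Trbj genes, Trbv genes with at least 3% of Trbv counts, those with an unadjusted p below 0.05, and the 3 pseudogenes with the most counts; others were named after their values were seen. The members and lists were chosen with earlier results of these data known. A further marker list is not reported here.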

Additional observations from a re-analysis of the deposited data

How the results depend on the processing

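The number of TCRβ genes called at an adjusted p of 0.05 was 0 under all 16 alternatives, and the smallest adjusted p of a member was 0.138, with replicate 3 as a batch, an alternative chosen after seeing the data. The Trbc1 change stayed below 0 in its 13 alternatives (-0.58 to -0.16), and the cluster 2 share of Trbc counts was 2.72 to 3.35 percentage points higher in BIT mice in its 11. Of these 11, the limits to functional genes and to members with at least 10 counts could not change the share. The difference there was the main one, 2.94 percentage points. With the libraries scaled to the Trbv total the direction turned for Trbc2 (0.080), Trbv13-2 (0.12), Trbv13-3 (0.067), Trbv14 (0.097), Trbv15 (0.039), Trbv16 (0.039), Trbv17 (0.00065) and Trbv19 (0.16, all log2 fold changes); this scaling sets the Trbv total level by construction. With 1 library left out, the log2 fold change of Trbc2 was between -0.34 and -0.11 and that of Trbv29 between -0.63 and -0.27. The log2 fold change was between -0.31 and 0.060 for Trbv13-2 and between -0.24 and 0.027 for Trbv19, both turned without WT replicate 2, and between -0.059 and 0.40 for Trbv24, turned without BIT replicate 1. Trbv24 also turned to -0.049 with TMM, -0.039 with edgeR and -0.035 with DESeq2; the cause was not tested. The number of Trbv genes whose shares did not overlap was 6 of 26 with replicates 1 and 2 alone, where 72.8% of all genes did not overlap. It was 4 to 7 with 1 library left out, where 13.5% to 64.2% did not. These percentages of all genes shift with the Trbv total and are not a like background for the shares. Same-numbered WT and BIT libraries had correlations of their deviations of 0.139, 0.0255 and 0.332. WT replicates 1 and 3 correlated best with the BIT library of their number, but WT replicate 2 with BIT replicate 1 (0.244). BIT replicate 3 correlated with WT replicates 1 and 2 at -0.205 and -0.221, and WT replicate 3 with BIT replicates 1 and 2 at -0.299 and -0.108. The numbers were not taken as pairs in the main fit. With the replicate block 0 members were called, and 21 of all genes passed an adjusted p of 0.05, against 22 without it. In that fit 5 members were lower at an unadjusted p below 0.05, against 6.54% of all genes. With replicate 3 as a batch 8 members were, against 7.54% of all genes. No alternative could give a cluster share for Trbj or Trbd, whose counts were 0. The smallest exact p of 0.1 limits every comparison of shares, and genes below the count minimum were not tested.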
